A study of Mus musculus with 2 samples.

Results

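The miRNA genes Mir126a, Mir221 and Mir222, which are best known from endothelial cells, were followed in adrenal glands of newborn mice. Each was found in the count tables by its Ensembl identifier and GENCODE symbol. The members are 3 of 1973 miRNA genes, chosen by name with earlier results of these data known. Small RNA below 30 nucleotides was sequenced from the glands of 2 mouse pups of the strain B6NCrl at postnatal day 0, with no treatment or genotype difference named. Each library held both adrenals of 1 pup, the pups came from 1 pregnancy, and their sex was not collected. They stand as replicates 1 and 2 of the series' only group. Because the labels also give both samples a single donor identifier, the n of 2 would be technical if that identifier meant 1 animal. Pup 1 gave 1131762 same-strand miRNA gene counts and pup 2 gave 3327743. A level is given as CPM, a gene's share of these counts scaled to a library sum of 1000000.

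An miRNA is cut from a hairpin transcript into a short mature strand, whose bases 2 to 8, the seed, pair with target transcripts. miR-126 is the miRNA most closely tied to endothelial cells. It is made from the gene of the secreted vascular protein EGFL7, and it is known to support vessel integrity and growth factor signalling by repressing inhibitors such as Spred1. miR-221 and miR-222 are made from neighbouring hairpins on the X chromosome and are known to repress the growth factor receptor Kit and the cell cycle inhibitor Cdkn1b. They are made in endothelial cells but also in smooth muscle and blood progenitor cells. The adrenal gland is densely supplied with sinusoidal capillaries. In a whole gland, fewer cells of a type and less RNA per cell cannot be told apart.

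The mature strands are shown because their seeds set which targets each miRNA can pair with. They are RefSeq sequences on GRCm38.p6, written 5′ to 3′, with the seed in capitals. All 3 members were matched in that table. The miR-126a-5p and miR-222-5p strands are not shown, so statements on seeds and likeness cover the 3p arm of Mir126a and Mir222 only.
mmu-miR-126a-3p: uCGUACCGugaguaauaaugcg
mmu-miR-221-3p: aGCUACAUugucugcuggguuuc
mmu-miR-222-3p: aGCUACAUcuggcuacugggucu
mmu-miR-221-5p: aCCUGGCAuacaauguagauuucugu
The 3p strands of miR-221 and miR-222 have the same seed, share their first 8 bases and have the same base at 11 of 23 positions. Only 1 other mature miRNA of the table, mmu-miR-1928, has that seed, and its gene Mir1928 was at 0 counts in each library. A count of 0 allows 3 counts of the total, or 2.65 CPM in the library of pup 1 and 0.902 CPM in that of pup 2, by counting error only. No other gene of the table shares the seed of miR-126a-3p. None of the 4 mature strands occurs exactly, or within 3 mismatches, in any of 1004 other mouse hairpins. The closest was the antisense hairpin Mir126b for miR-126a-3p, with 5 mismatches, and the fewest were 7 for miR-221-3p and 8 for miR-222-3p.

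The hairpins are shown with the mature strands listed above in capitals, because the deposited counts are per hairpin gene and join both arms.
Mir126a hairpin: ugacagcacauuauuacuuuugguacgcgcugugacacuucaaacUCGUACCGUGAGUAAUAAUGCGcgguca
Mir221 hairpin: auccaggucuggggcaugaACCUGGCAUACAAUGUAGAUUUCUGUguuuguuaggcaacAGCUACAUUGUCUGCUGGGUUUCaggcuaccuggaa
Mir222 hairpin: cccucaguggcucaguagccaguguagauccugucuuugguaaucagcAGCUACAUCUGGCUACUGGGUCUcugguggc
The Mir126a gene (ENSMUSG00000065540.1) spans chr2:26591357-26591429 of mm10, plus strand. In GENCODE M21 it falls in an intron of 8 Egfl7 transcripts and in an exon of 1 retained-intron transcript, Egfl7-206. Mir221 (ENSMUSG00000065422.1) lies at chrX:19146294-19146388 and Mir222 (ENSMUSG00000065471.1) at chrX:19146893-19146971, both on the minus strand, with 504 bases between them. Neither overlaps another annotated gene, and the nearest, the noncoding gene Gm14636 on the same strand, ends 10010 bases upstream of Mir222 and starts 20270 bases upstream of it.

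Mir126a had more counts than any other miRNA gene in both pups. It had 92375 counts in pup 1, or 81621 CPM, and 340387 counts in pup 2, or 102288 CPM. These are 8.16% of same-strand counts in pup 1 (95% Clopper-Pearson interval 8.11 to 8.21) and 10.2% in pup 2 (10.2 to 10.3). The mean was 91954 ± 14614 CPM (SD, n = 2). Mir10a, an miRNA gene of a Hox cluster and the next gene by level, had 75963 CPM in pup 1 and 73019 CPM in pup 2. Mir126a thus stood 1.07-fold above Mir10a in pup 1 and 1.40-fold above it in pup 2, and the levels of the pair did not overlap. Per base of annotated hairpin, Mir126a also ranked at 1, with 1260 CPM per nucleotide. The RNA was below 30 nucleotides and shorter than the hairpins shown, so this division rescales the counts and does not check the rank. Reads mapped to several places, 34.9% and 32.2% of all reads, are not in the gene counts, so the rank holds among counted reads. Over all reads of the tables Mir126a took 4.11% in pup 1 and 5.39% in pup 2.

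Mir221 and Mir222 were measured at far lower levels. Mir222 had 156 counts in pup 1 and 506 in pup 2, which are 138 CPM (95% interval 117 to 161) and 152 CPM (139 to 166), with a mean of 145 ± 10.1 CPM (SD, n = 2). Mir221 had 123 counts in pup 1 and 455 in pup 2, which are 109 CPM (90.3 to 130) and 137 CPM (124 to 150), with a mean of 123 ± 19.8 CPM (SD, n = 2). Both genes had the higher CPM in pup 2, and their intervals overlap between the pups. Such overlap does not show equal levels. The counting interval of the ratio of pup 2 over pup 1 was 1.03 to 1.55 for Mir221 and 0.920 to 1.33 for Mir222. Mir222 ranked 168 and Mir221 ranked 177 of 635 genes with a count. Of the 284 genes whose mean reached 10 CPM, 40.8% had a lower mean than Mir222 and 37.7% a lower mean than Mir221. The genes next to Mir222 in rank, Mir493 at 156 ± 29.5 CPM and Mir101a at 143 ± 27.7 CPM, did not differ from it beyond the spread between pups. The same held for Mir505 at 127 ± 42.2 CPM and Mir148b at 120 ± 34.5 CPM, the neighbours of Mir221.

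**Figure D1:**
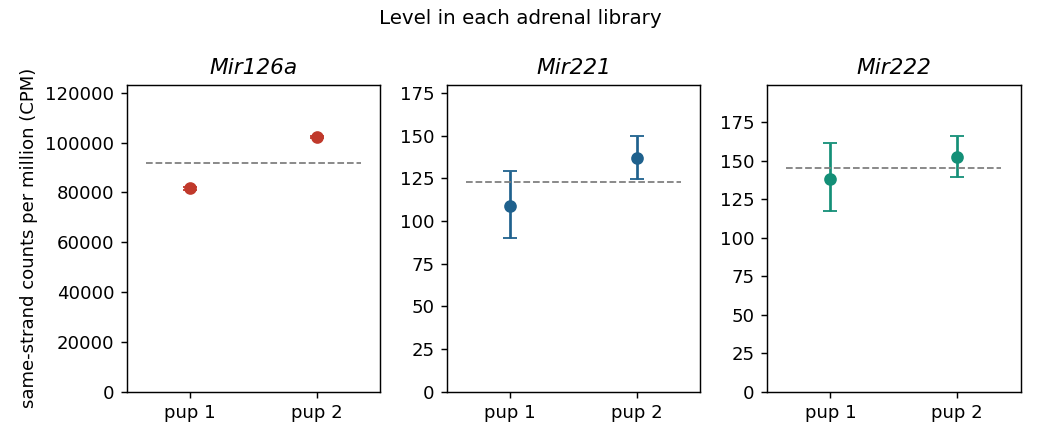
Same-strand CPM of Mir126a, Mir221 and Mir222 (vertical axes, each from 0 and with its own range) in the library of each pup. Points are the libraries, bars are 95% Clopper-Pearson intervals for counting error, and dashed lines are the means, 91954, 123 and 145 CPM. The bars of the pups are apart for Mir126a and overlap for Mir221 and Mir222, and overlap does not show equal levels.

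**Figure D2:**
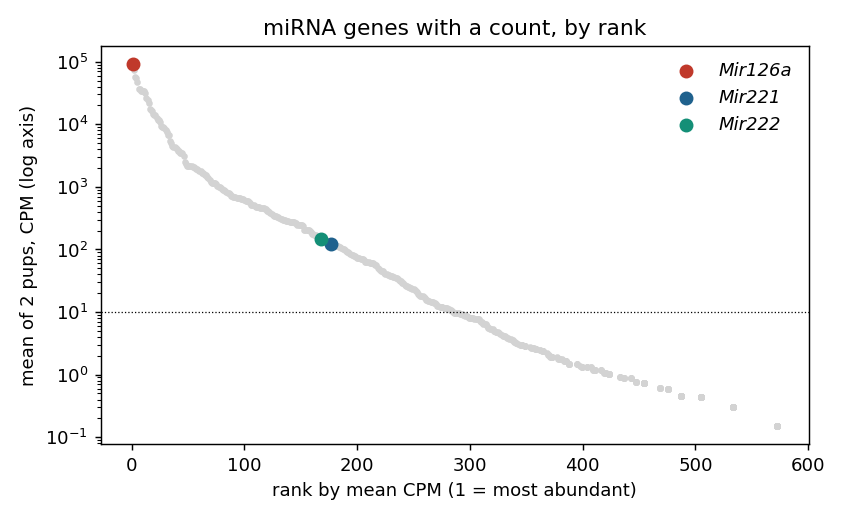
Mean CPM of the pups (vertical log axis) against rank (horizontal axis) for the 635 miRNA genes with a count, in grey. Mir126a is at rank 1, Mir222 at rank 168 and Mir221 at rank 177, and the dotted line marks 10 CPM.

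Mir126a exceeded Mir222 by 592-fold in pup 1 (95% counting interval 506 to 697) and by 673-fold in pup 2 (617 to 735). Over Mir221 it stood 751-fold higher in pup 1 (629 to 904) and 748-fold higher in pup 2 (682 to 822). Rescaled by annotated hairpin length only, these ratios were 641 and 728 over Mir222, and 977 and 974 over Mir221. The intervals of the pups overlap for each pair, so the relation of Mir126a to the X-linked genes did not differ detectably between the libraries. Mir126a gave 99.7% of the summed mean CPM of the 3 genes, so a sum over them follows Mir126a.

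The neighbouring genes Mir221 and Mir222, whose 3p strands share a seed, had nearly equal counts. Mir222 made up 55.9% of their joint counts in pup 1 (95% Clopper-Pearson interval 49.9 to 61.8) and 52.7% in pup 2 (49.4 to 55.8), a mean of 54.3% ± 2.31 (SD, n = 2). Mir222 was the higher of the pair in both pups, but each interval includes equal counts. Divided by hairpin length, its share was 60.4% and 57.2%, since the Mir222 hairpin is annotated with 79 bases and that of Mir221 with 95. Their mean levels differed 1.18-fold. For comparison, 55 other pairs of neighbouring miRNA genes on the same strand, no more than 1000 bases apart and with means of at least 10 CPM, differed by a median of 4.74-fold, and 3 of them differed by less than Mir221 and Mir222. These other pairs include clusters with several hairpins, so some genes enter more than 1 pair, and some members have copies elsewhere whose multi-mapped reads are not counted. The comparison of pairs was chosen after the levels of Mir221 and Mir222 were known and is a description without a test.

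**Figure D3:**
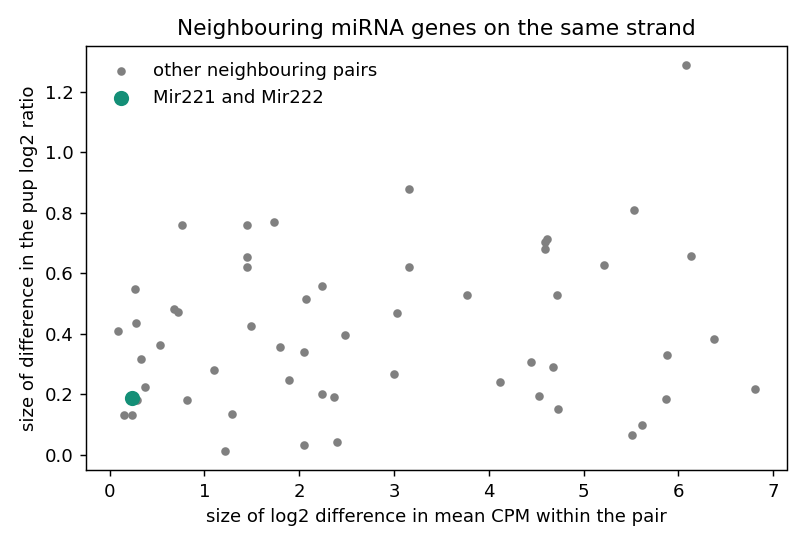
For each pair of neighbouring miRNA genes on the same strand, the size of the log2 difference in mean CPM within the pair (horizontal axis) and the size of the difference between their log2 ratios of pup 2 over pup 1 (vertical axis). Grey points are 55 other pairs. Mir221 and Mir222 lie near the left end at 0.24, with a ratio difference of 0.19.

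The opposite strand of Mir126a is itself annotated as an miRNA gene, Mir126b (chr2:26591363-26591420, minus strand). No row was matched to Mir126b, so reads on that strand were followed in the opposite-strand counts of the Mir126a row. The RefSeq hairpin of Mir126b is shown because all 58 of its bases are complementary to the Mir126a hairpin. Capitals mark its mature 5p and 3p strands.
Mir126b hairpin: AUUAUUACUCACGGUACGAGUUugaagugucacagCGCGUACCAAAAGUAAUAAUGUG
Either mature strand of Mir126b differs from the Mir126a hairpin, read on its own strand, at 5 positions or more. Their seeds are given in capitals in the mature strands and differ from the seed of miR-126a-3p.
mmu-miR-126b-5p: aUUAUUACucacgguacgaguu
mmu-miR-126b-3p: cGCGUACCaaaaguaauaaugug
The Mir126a row held 8 opposite-strand reads in pup 1 and 21 in pup 2. These are 0.00866% of its stranded reads in pup 1 (95% Clopper-Pearson interval 0.00374 to 0.0171) and 0.00617% in pup 2 (0.00382 to 0.00943), with overlapping intervals. Reads on the Mir126a strand therefore outnumbered those on the strand of Mir126b by 11547-fold and 16209-fold. As a level, that is 7.07 opposite-strand CPM in pup 1 against 6.31 in pup 2. Whether these reads are cut from Mir126b was not tested, since the tables give no read positions.

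Over all gene rows, 3.36% of stranded reads in pup 1 and 3.05% in pup 2 were on the opposite strand, and rows with no or few same-strand reads held most of them. Most abundant miRNA genes had none. Among genes with at least 1000 same-strand counts, 76 of 81 in pup 1 and 127 of 139 in pup 2 had 0 such reads. Mir126a had the most same-strand counts. A gene with far fewer could show 0 at the same share from depth alone, so these counts do not set Mir126a apart. Mir10a, the second most abundant gene, had 0 in pup 1 and 1 in pup 2. Of these genes, 3 in pup 1 and 6 in pup 2 lie opposite another miRNA gene in GENCODE M21, and 2 and 3 of them had an opposite-strand read. Without such a partner, 3 of 78 genes in pup 1 and 9 of 133 in pup 2 had one. Depth was not matched between genes with and without a partner. A larger opposite-strand share than at Mir126a was found for 1 gene in pup 1 and 9 genes in pup 2. Mir337, which lies opposite Mir3544, had 56 and 123 such reads and was the gene in pup 1. In pup 2 the largest share was 2.42% at Mir203, which has no annotated miRNA partner. Among the 20 genes with the highest mean CPM, 2 had opposite-strand reads in both pups, Mir126a and Mirlet7b, the latter with 2 and 6 reads and no annotated miRNA partner. Mir221 and Mir222 had 0 opposite-strand reads in both pups.

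**Figure D4:**
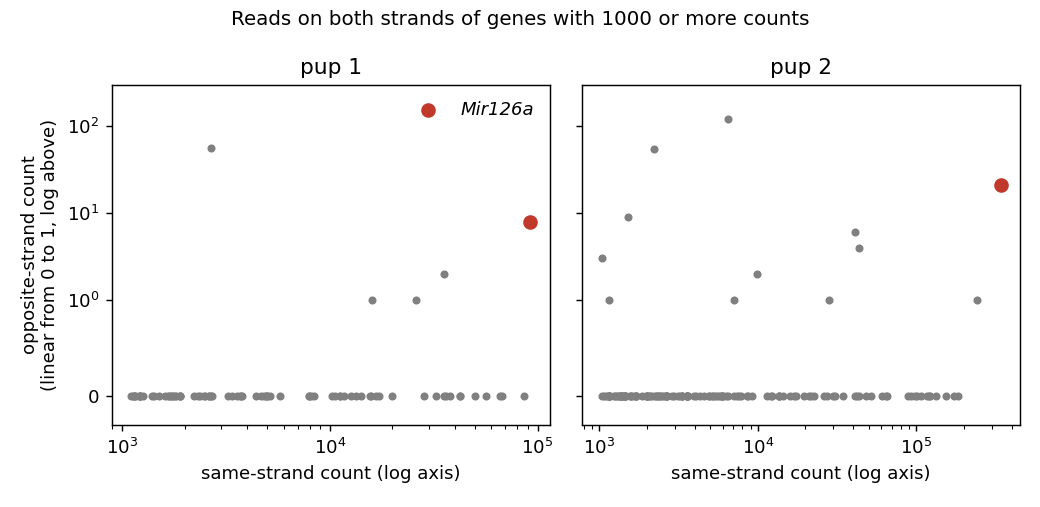
Opposite-strand count (vertical axis, linear from 0 to 1 and log above) against same-strand count (horizontal log axis) for miRNA genes with at least 1000 same-strand counts, 81 in pup 1 and 139 in pup 2. Mir126a, in red, has 8 opposite-strand reads in pup 1 and 21 in pup 2, while most genes lie at 0.

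The littermates were compared to see how far the 3 levels vary among glands matched for age. None of the 3 members differed by 2-fold, the threshold used, against a background of 5.28% of the 284 genes whose mean reached 10 CPM, with 3.52% higher in pup 2 and 1.76% lower. With a minimum of 100 CPM, which the mean of each member exceeds, 4 of 188 genes differed 2-fold. All 3 members had the higher CPM in pup 2. The plain ratio of pup 2 over pup 1 was 1.25 for Mir126a (95% counting interval 1.24 to 1.26), 1.26 for Mir221 (1.03 to 1.55) and 1.10 for Mir222 (0.920 to 1.33), whose interval includes no difference. On the log2 scale with a prior of 1 CPM these are 0.33, 0.33 and 0.14, where the median of the 284 genes was 0.08 and 165 of them were higher in pup 2. A higher log2 ratio than that of Mir126a was found for 83 of the 284 genes, than that of Mir221 for 80 and than that of Mir222 for 128. With 1 library per pup there is no p-value, and the intervals cover counting error only.

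The depth behind each member sets what its spread can show. The coefficient of variation (SD over mean) between the pups was 15.9% for Mir126a, and counting alone would give 0.262%. For Mir221 the spread was 16.2%, against 7.19% from counting, and for Mir222 it was 6.94%, against 6.48%. The counting part follows from the number of reads, so Mir126a was measured with the least counting error of the 3.

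Mir126a is abundant enough to move the scale for the other genes. Its share was 2.07 percentage points higher in pup 2, and leaving it out of the library sizes raised the log2 ratio of every other gene by 0.03. The 3 members stayed higher in pup 2 in each of the 7 alternative settings of prior, strand column and library size run for each, with log2 ratios from 0.33 to 0.43 for Mir126a, 0.32 to 0.43 for Mir221 and 0.14 to 0.25 for Mir222. These settings do not test a difference, since a prior cannot change the sign and a library size moves all genes together.

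**Figure D5:**
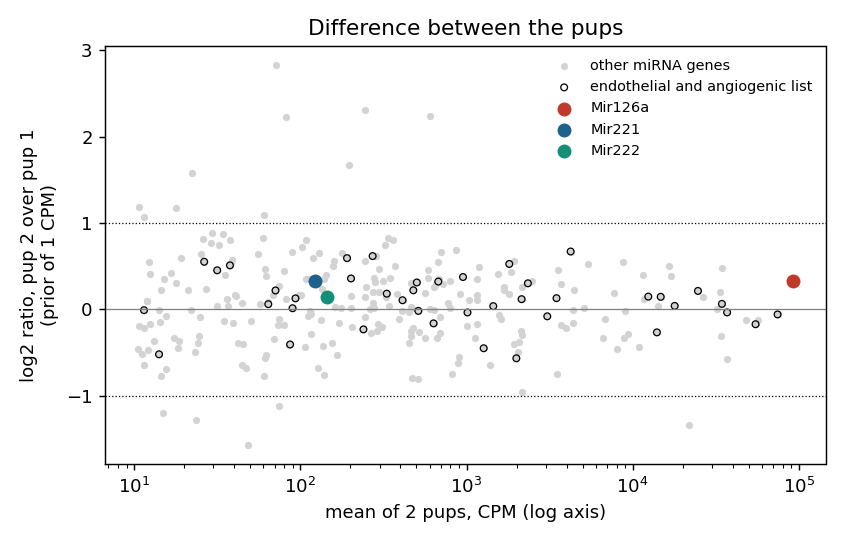
Log2 ratio of pup 2 over pup 1 with a prior of 1 CPM (vertical axis) against mean CPM (horizontal log axis) for the 284 miRNA genes whose mean reached 10 CPM. Open circles are genes of the endothelial and angiogenic list, and dotted lines mark a 2-fold difference. Mir126a and Mir221 lie at 0.33 and Mir222 at 0.14, all inside the dotted lines.

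Genes with the most similar pup ratio were looked up by the absolute difference of log2 ratios, which over 2 libraries says only that 2 ratios are close. For Mir126a they were Mir381 at 0.33, the myeloid miRNA gene Mir223 at 0.33 and Mir18, of the miR-17-92 cluster, at 0.32. Mir221 was closest to Mir223, Mir381 and Mir126a itself. For Mir222 they were Mir186, Mir26b and Mir668, each at 0.14.

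Other miRNAs known from endothelial cells and vessel growth were taken from a list of 54 genes, many of which are also made in other cell types. Of these, 51 were matched to a row, 50 had a count and 44 reached a mean of 10 CPM. None of the 44 differed 2-fold between the pups, beside 5.28% of all 284 genes that reached this level. Of the 44, 30 were higher in pup 2 and 14 lower, beside 165 higher and 119 lower of the 284. Their median log2 ratio was 0.13 beside 0.08 for all 284 genes. Without the 3 members, 27 of 41 were higher and the median was 0.12. The summed share of the other list genes was 31.4% in pup 1 and 31.3% in pup 2, while Mir126a took 8.16% and 10.2%. The 4 highest list genes after Mir126a were Mir10a, Mir23b at 54901 ± 4581 CPM, Mir23a at 37020 ± 616 CPM and Mir10b at 34446 ± 1096 CPM (SD, n = 2 for each).

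Of the 48 other list genes with a row, none could have a higher mean CPM than Mir126a, which ranks at 1 among all genes. Of the 48, 31 were above Mir222 and 17 were below Mir221, with 1 at 0 in both pups. Among all 635 genes with a count, 73.5% had a lower mean than Mir222 and 72.1% a lower mean than Mir221. Some list genes have copies elsewhere whose multi-mapped reads are not counted. The genes named next were chosen after their values were seen, for their known roles in vessels. The angiogenic Mir296 had 2380 CPM in pup 1 and 1610 CPM in pup 2. Mir210, the miRNA induced by low oxygen, had 669 and 598 CPM. Both were lower in pup 2, opposite to Mir126a. Of the 41 other list genes that reached 10 CPM, 14 were lower in pup 2 and 27 were higher. Mir132, known from activated endothelium, had 516 and 510 CPM, and Mir503, which lies beside Mir322 on the X chromosome, had 448 and 557 CPM. Mir155, an inflammatory miRNA of leukocytes and endothelium, was lower than both X-linked members, with 62.7 and 65.5 CPM. Mir92-1, of the miR-17-92 cluster, had 1026 and 1002 CPM.

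Blood cells, smooth muscle and tissue of neighbouring organs could also have been in the glands. Blood cells are also known to hold the 3 members. Of 6 blood markers, Mir142 was not matched to a row, and the other 5 had sums of 1142 CPM (pup 1) and 1295 CPM (pup 2), with 3 higher and 2 lower in pup 2. None of the 5 was at 0, and reads mapped to several places are not in these sums. The erythroid Mir451a had 261 and 263 CPM, Mir144 had 20.3 and 38.5 CPM and Mir486 had 58.3 and 36.1 CPM. Mir223, which platelets and myeloid cells hold, had 704 and 883 CPM, a ratio of 1.25 (95% counting interval 1.16 to 1.36). Mir150 of lymphocytes had 99.0 and 74.5 CPM. Mir126a was 71.4-fold and 79.0-fold above the sum of the 5 blood genes, and Mir221 and Mir222 were each below that sum. Without levels per cell type, such folds between different miRNAs do not give the part that came from blood cells. The Mir142b row, annotated opposite Mir142, held 565 and 2852 opposite-strand reads, or 499 and 857 CPM. With these added, an alternative chosen after the data were seen, the blood sums were 1642 and 2152 CPM and Mir126a was 49.7-fold and 47.5-fold above them. Mir221 and Mir222 were again below, and the part of blood cells in the levels of the 3 members was not tested.

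Neither marker gene of vessel walls differed 2-fold between the pups, beside 5.28% of the 284 genes that did. The smooth muscle and pericyte genes Mir143 and Mir145a, both of the list's 2 members, had sums of 15116 CPM (pup 1) and 19776 CPM (pup 2), a ratio of 1.31 beside 1.25 for Mir126a. Both had the higher CPM in pup 2, as did 165 of the 284 genes. The hepatocyte gene Mir122 had 2979 and 4081 CPM, a ratio of 1.37. The 4 kidney genes summed to 216 and 225 CPM but went in opposite directions. Mir215 had 72.5 and 23.7 CPM and Mir194-1 had 13.3 and 2.70 CPM, whereas Mir192 had 101 and 158 CPM and Mir194-2 had 30.0 and 40.0 CPM. Mir194-1 rested on 15 and 9 counts, and its mean of 7.98 CPM was below the minimum of 10 CPM. The counting interval of the Mir194-2 ratio, 0.907 to 2.00, includes no difference. In the striated muscle list, Mir1a-1 and Mir133a-1 were at 0 in both pups, and Mir206 had 82.2 and 411 CPM. Mir1a-2 was not matched to a row. Reads mapped to several places are not in the gene counts, so a 0 does not show that a mature strand was absent. Numbered copies such as Mir194-1 and Mir194-2 can lose reads in the same way, so their directions may not be those of the mature strand. Of the neuroendocrine genes, Mir375 had 37586 and 30415 CPM, lower in pup 2, and Mir7-1 had 307 and 438 CPM, higher in pup 2. Mir7-2, a numbered copy outside the marker list, had 315 and 265 CPM, lower in pup 2. Whether the mix of cell types in the glands set the differences in Mir126a, Mir221 and Mir222 was not tested.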

How the data were processed

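The deposited values are raw read counts for miRNA genes, 1 unpooled table per library, on mm10 with annotation M4, per the notes deposited with the samples. The aligner is not given in the sources used here. Each table has unstranded, same-strand and opposite-strand counts, and rows for unmapped, multi-mapped, unassigned and ambiguous reads, which were left out of library sizes. Gene rows held 50.4% and 52.7% of all reads, unmapped reads 10.6% and 11.2%, reads outside genes 4.03% and 3.86%.

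CPM were computed from same-strand counts. Identifiers were matched without version to GENCODE M21, and 1894 of 1973 rows received a symbol. Intervals are exact Clopper-Pearson (95%) or exact conditional for 2 Poisson rates (scipy 1.17.1). PCR reads without molecular identifiers are not independent, so intervals and floors cover counting error only. A difference was called at 2-fold, on log2 ratios with 1 CPM added to each level, for genes whose mean reached 10 CPM. With 1 library per pup no test was run. edgeR 4.0.16 and DESeq2 1.42.0 supplied alternative library sizes only. The ratio and interval scripts were tested on simulated data.

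Named genes were the members, Mir126b, rank neighbours, the 3 genes closest in pup ratio, genes sharing a seed, the 5 most abundant genes of the endothelial and angiogenic list and cell type markers. Other genes were chosen after their values were seen. The members and lists were chosen with earlier results of these data known.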

Additional observations from a re-analysis of the deposited data

How the results depend on the processing

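Each member kept its direction between the pups in all settings run, and none reached 2-fold. A prior cannot change the sign of a ratio, and a library size moves all genes together. The kept direction is therefore no evidence of a difference between the pups. Dividing by all reads in the tables gave mean levels of 47529 CPM for Mir126a, 63.4 CPM for Mir221 and 74.8 CPM for Mir222. Without Mir126a in the library size, Mir222 had 160 CPM. The log2 ratio of Mir126a was 0.39 with all reads, 0.36 without Mir126a in the library size, 0.43 with TMM and 0.36 with DESeq2 size factors. TMM raised the median log2 ratio of all genes by 0.10. Per hairpin length, which only rescales counts by the annotation, Mir221 ranked 185, Mir222 ranked 165 and the Mir222 share of the pair was 58.8%. The number of genes that differed 2-fold was 15 of 284, but 85 of 635 with no minimum level and 4 of 188 with a minimum of 100 CPM. It was 18 of 294 without Mir126a in the library size, where more genes reached 10 CPM. None of 44 list genes passed with TMM or DESeq2 library sizes, beside 15 of 284 genes with either. Leaving out a pup gave 81621 to 102288 CPM for Mir126a, 109 to 137 CPM for Mir221, 138 to 152 CPM for Mir222, 52.7% to 55.9% for the Mir222 share and 0.00617% to 0.00866% for the opposite-strand share of Mir126a. No paired analysis was possible because the series has a single group. With 123 and 156 counts in pup 1, depth limits Mir221 and Mir222 more than Mir126a.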
